A study of Mus musculus with 6 samples.

Results

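The mevalonate pathway builds isoprenoid units from acetyl-CoA, and its enzymes from the first condensation up to farnesyl diphosphate, with the next prenyl diphosphate synthase, are described here as far as they were listed. They were chosen by name, as 8 genes, through the platform annotation of the arrays: 7 were measured, by 17 probe sets, among 12393 genes and 22626 probe sets in all. The members and the gene lists below were chosen with earlier results of these data known. Their counts beside the shares of all genes are therefore descriptions only. Acat2, the cytosolic thiolase of the first step, matched no probe set and was not analysed here, nor was any enzyme of these steps outside the list. Expression was measured in mouse cells of a line named PPP3R1, with 3 arrays of cells starved for 6 h and 3 arrays of control cells of the line in normal medium. PPP3R1 also names the regulatory subunit of calcineurin, and neither the alteration of that gene nor the starvation medium is given in the sources used here. The titles and the series design take the control from the PPP3R1 line, while the growth and treatment protocols name wild-type mouse embryonic fibroblasts as the control, so that a difference of line cannot be told apart from starvation if the protocols are right. Whether the biological replicates were separate cultures is not stated, so p-values reflect only the spread between arrays, which may be technical.

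In this pathway Hmgcs1 joins acetoacetyl-CoA and acetyl-CoA to HMG-CoA, which is then reduced to mevalonate. Mvk and Pmvk add phosphates to mevalonate, Mvd decarboxylates the product to isopentenyl diphosphate, and Idi1 isomerises it to dimethylallyl diphosphate. Fdps condenses these units to farnesyl diphosphate, from which sterols, dolichol, ubiquinone side chains and farnesyl groups of proteins are made, and Ggps1 extends it to geranylgeranyl diphosphate. Transcription of many of these genes is known to be driven by SREBP2, a factor released from the endoplasmic reticulum when sterols are low.

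Transcripts of 6 of the 7 measured genes were lower in starved cells, and those of the 7th, Ggps1, had no settled direction. In limma's test across all probe sets, at an adjusted p of 0.05 and with each gene represented by its brightest probe set, 6 members fell and 0 rose, where 20.1% of all genes were called lower and 20.8% higher. The difference was negative in all 7 brightest probe sets, so 0 would rise at an unadjusted p of 0.05 too. The falls were 1.26-fold in Pmvk, 1.85-fold in Mvk, 2.95-fold in Hmgcs1, 3.17-fold in Fdps, 4.64-fold in Mvd and 7.34-fold in Idi1. The median change of the 7 members was -1.56 (log2, starved minus control), against -0.01 over all genes. A fall of at least 1 (log2) was seen in 4 members, while 1.50% of all genes had one. In bulk RNA, fewer cells with a transcript and less of it per cell cannot be told apart.

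**Figure D1:**
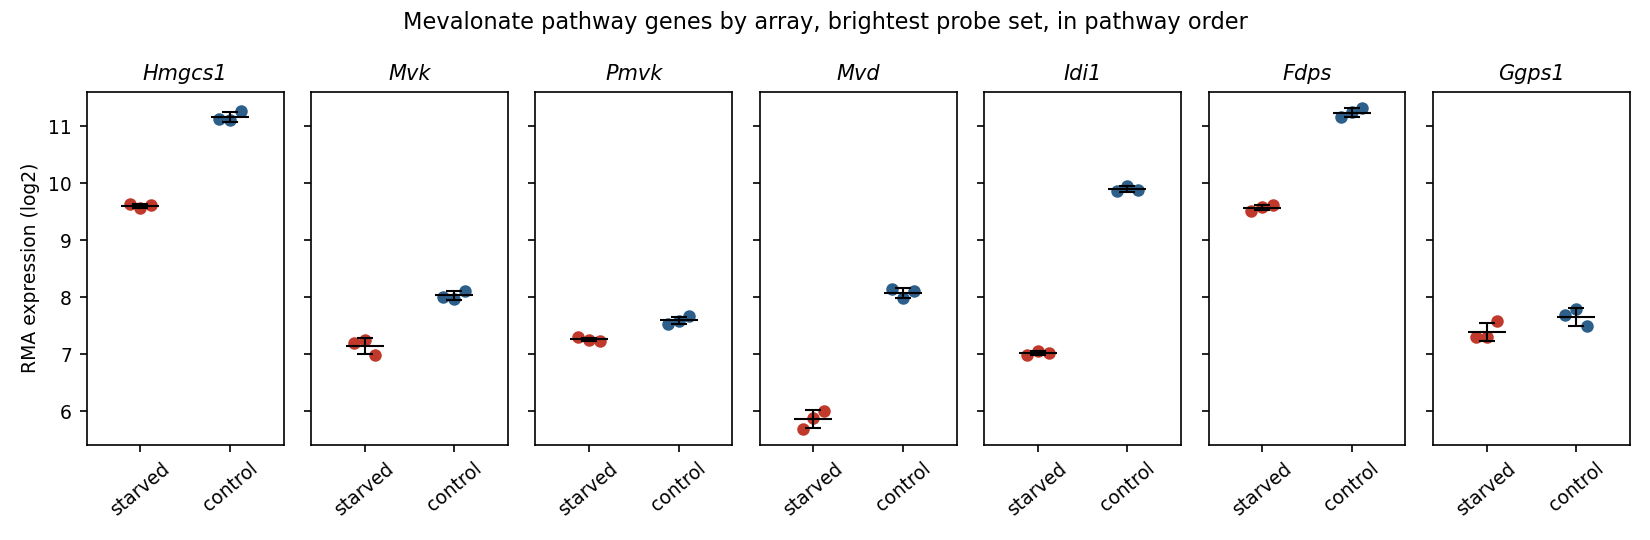
RMA expression (log2) of the 7 members in pathway order, 1 point per array in the 3 starved and 3 control samples, with the mean and SD as bars. The groups do not overlap in Hmgcs1, Mvk, Pmvk, Mvd, Idi1 and Fdps, and they overlap in Ggps1.

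Promoter sequences are shown for the 3 members with the largest falls for which a window was found and for Ggps1, since the first 3 fell together and the last had no settled direction. They come from RefSeq (build GRCm38.p6), run 5′ to 3′ on the gene's strand from 250 bases before to 50 after the annotated start, and lie at chr13:8885356-8885655 (plus strand), chr8:122443373-122443672 (minus strand), chr13:119690101-119690400 (plus strand) and chr13:14063439-14063738 (minus strand). Capitals mark matches on either strand to the letters of a sterol regulatory element core (TCACNCCAC), to its shorter form (TCACNCC), to a variant sterol element (TCACACGAG), to the CCAAT box read as ATTGG, bound by NF-Y, and to the GC box GGGCGG, bound by Sp1. The shorter form also counts where it lies inside the core.
Idi1: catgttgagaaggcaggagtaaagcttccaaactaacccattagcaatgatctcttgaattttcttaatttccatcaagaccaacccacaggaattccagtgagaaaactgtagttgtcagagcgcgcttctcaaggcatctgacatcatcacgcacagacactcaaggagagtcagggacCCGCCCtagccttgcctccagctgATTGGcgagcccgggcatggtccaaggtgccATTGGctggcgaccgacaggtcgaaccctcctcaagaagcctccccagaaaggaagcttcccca
Mvd: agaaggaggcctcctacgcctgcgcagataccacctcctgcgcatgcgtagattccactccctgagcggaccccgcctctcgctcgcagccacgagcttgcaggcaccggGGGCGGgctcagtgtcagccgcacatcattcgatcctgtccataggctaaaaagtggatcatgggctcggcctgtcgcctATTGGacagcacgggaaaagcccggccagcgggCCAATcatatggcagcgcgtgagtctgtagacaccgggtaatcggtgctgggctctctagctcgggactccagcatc
Hmgcs1: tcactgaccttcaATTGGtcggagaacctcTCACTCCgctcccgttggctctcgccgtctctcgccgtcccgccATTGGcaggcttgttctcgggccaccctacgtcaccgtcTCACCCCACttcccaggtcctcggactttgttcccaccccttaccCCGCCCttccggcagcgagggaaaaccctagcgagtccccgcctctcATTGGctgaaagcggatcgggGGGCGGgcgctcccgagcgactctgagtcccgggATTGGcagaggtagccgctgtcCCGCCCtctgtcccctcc
Ggps1: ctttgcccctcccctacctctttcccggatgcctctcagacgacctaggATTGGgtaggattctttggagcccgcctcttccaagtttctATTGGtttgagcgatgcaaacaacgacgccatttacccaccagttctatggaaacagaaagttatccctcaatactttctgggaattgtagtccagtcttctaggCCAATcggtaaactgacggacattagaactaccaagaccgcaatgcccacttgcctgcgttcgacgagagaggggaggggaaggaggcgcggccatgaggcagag

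Windows were found for 6 of the 7 measured members, 7 windows in all, with 2 for Pmvk. The member without a window was Fdps, whose promoter was therefore not searched for any of these elements. The CCAAT box letters were present in 6 of the 7 windows, at least 1 for each of the 6 genes, and in 37.4% of the 32851 promoters of the same length. The GC box was found in 4 member windows, those of Hmgcs1, Mvk, Mvd and Idi1, and in 35.7% of all promoters. The sterol element core was found in Hmgcs1, 137 bases before the start, and in 1.24% of all promoters. Its shorter form was found in that gene's window too and in 15.6% of all promoters, and the variant sterol element in 0 member windows and 0.076% of all. In the Idi1 window the CCAAT letters lie 45 and 14 bases before the start, in that of Mvd 60 and 27 bases before it, and in that of Ggps1 201, 160 and 55 bases before it. These matches are descriptions of the letters in the windows.

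Hmgcs1, HMG-CoA synthase of the cytosol (chromosome 13, 119690351 to 119708260, GRCm38.p6), commits acetyl groups to the pathway. Its brightest probe set read 9.62, 9.57 and 9.62 (log2) in starved replicates 1, 2 and 3, against 11.13, 11.11 and 11.27 in control replicates 1, 2 and 3. The 3 starved arrays lay close together, and the lowest control array was 1.48 (log2) above the highest starved one. The change was -1.56 ± 0.06 (SE, n = 3 per group; limma adjusted p = 3.04e-06). The gene has 3 more probe sets, at control means from 9.27 to 10.88, and their changes were -1.61, -1.67 and -1.59. The 4 probe sets thus gave nearly the same change.

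Mvk, mevalonate kinase on chromosome 5, makes the first of the phosphorylated intermediates. It read 7.19, 7.25 and 6.99 in starved cells, against 8.004, 7.97 and 8.12 in control cells. The groups were separated by 0.73 (log2), and the change was -0.89 ± 0.08 (limma adjusted p = 9.37e-05). A second probe set, with a control mean of 7.70, fell by 0.63 ± 0.08, with a gap of 0.40 between the groups.

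Pmvk, phosphomevalonate kinase on chromosome 3, had the smallest fall among the members called. It read 7.29, 7.25 and 7.24 in starved cells, against 7.54, 7.58 and 7.66 in control cells. All starved arrays were below all control arrays, by a gap of 0.24, and the change was -0.33 ± 0.06 (limma adjusted p = 0.00246). This gene has 1 probe set, whose name marks it as one that can match several transcripts.

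Mvd, the decarboxylase on chromosome 8 that yields isopentenyl diphosphate, read 5.70, 5.88 and 6.01 in starved cells, against 8.14, 7.98 and 8.11 in control cells. This was a drop to levels not far above 5 (log2), the limit used here for dim probe sets because the table holds no detection calls. The change was -2.21 ± 0.09 (limma adjusted p = 3.04e-06), and the second probe set gave -2.12 ± 0.08. The SD within the starved group, 0.16, was the widest of any group among the members called, and the gap between the groups was 1.97.

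Idi1, isopentenyl diphosphate isomerase on chromosome 13, changed most among the members. It read 6.98, 7.06 and 7.03 in starved cells, against 9.86, 9.95 and 9.88 in control cells. Both groups were tight, with SDs of 0.04 and 0.05, and were 2.81 apart. The change of -2.88 ± 0.06 (limma adjusted p = 2.06e-07) left 13.6% of the control level. Its second probe set averaged 4.51 ± 0.04 in starved cells and 7.55 ± 0.08 in control cells (SD, n = 3 each), a change of -3.04 ± 0.06. The starved mean of that probe set is under the limit for dim probe sets, so the size of its fall is less certain.

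Fdps, farnesyl diphosphate synthase on chromosome 3, supplies the branch point of sterols and other isoprenoids. It read 9.51, 9.58 and 9.62 in starved cells, against 11.15, 11.24 and 11.31 in control cells. The groups were 1.53 apart, and the change was -1.66 ± 0.06 (limma adjusted p = 2.54e-06). The other probe set of the gene was dim in both groups, at 2.81 ± 0.11 in starved and 2.90 ± 0.09 in control cells (SD, n = 3 each), and did not pass (-0.09 ± 0.08, limma adjusted p = 0.403). Averaging both probe sets gave a change of -0.88 for the gene, which still passed.

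Ggps1, geranylgeranyl diphosphate synthase on chromosome 13, makes the longer lipid group that is attached to many membrane-bound proteins. Its brightest probe set read 7.31, 7.30 and 7.58 in starved cells, against 7.69, 7.78 and 7.49 in control cells. Starved replicate 3 lay above control replicate 3, so the groups overlap, and the difference of -0.26 ± 0.10 did not pass (limma adjusted p = 0.0858). It passed without starved replicate 3 (-0.35, adjusted p = 0.0282), without control replicate 3 (-0.34, adjusted p = 0.0379) and with an intensity trend in the variance model (adjusted p = 0.0255), and the range over its alternatives was 0.0255 to 0.704.

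Among the other 3 probe sets of Ggps1, 2 rose and 1 did not pass. The names of these 3 mark them as ones that can match several transcripts, while that of the brightest does not. The second averaged 7.17 ± 0.01 in starved and 6.95 ± 0.13 in control cells (SD, n = 3 each) and rose by 0.22 ± 0.07 (limma adjusted p = 0.045). The third averaged 7.01 ± 0.03 in starved and 6.77 ± 0.02 in control cells (SD, n = 3 each) and rose by 0.24 ± 0.05 (limma adjusted p = 0.0076). The fourth, lower like the brightest, differed by -0.09 ± 0.10 without passing. With all 4 averaged the difference was 0.03 (limma adjusted p = 0.704), and no direction is given for this gene. Its 95% interval in the brightest probe set ran from -0.50 to -0.02, which holds no fall as large as that of Mvk.

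Counted over probe sets, 12 of the 17 fell, 2 rose and 3 did not pass, where 19.2% of all probe sets were called lower and 20.3% higher. Of the 12 that fell, 9 did so by at least 1 (log2). Every starved array lay below every control array in 6 of the 7 members by the brightest probe set, which held for 26.2% of all genes.

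**Figure D2:**
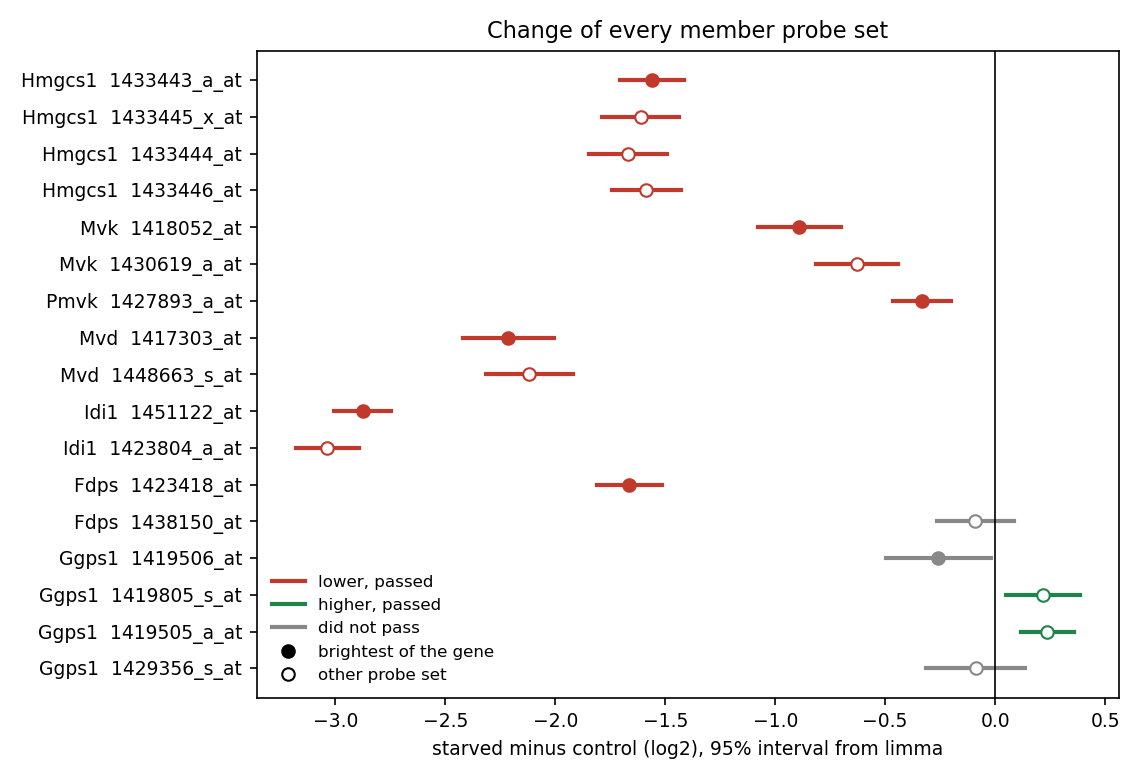
Change of each of the 17 member probe sets (starved minus control, log2) with limma's 95% interval, in pathway order, filled for the brightest probe set of a gene. Probe sets of Hmgcs1, Mvd and Idi1 lie close to those of the same gene, while those of Fdps and Ggps1 do not.

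Among the 7 measured members the largest falls were at Mvd and Idi1, and the smallest fall called was at Pmvk. In order of size the members were Idi1, Mvd, Fdps, Hmgcs1, Mvk, Pmvk and Ggps1. Each pair of neighbours in this order was compared by the difference of the 2 genes within each array. The order was itself taken from these values, and probe sets of the same gene also differed, as in Mvk (-0.89 and -0.63). In 5 of the 6 pairs the differences of starved and control arrays did not overlap, with an exact two-sided permutation p of 0.1 each, the smallest that 3 arrays against 3 allow (0.12 adjusted over the 6 pairs). The falls of Idi1 and Mvd were 0.66 ± 0.11 (SE) apart, those of Mvd and Fdps 0.55 ± 0.10, those of Hmgcs1 and Mvk 0.67 ± 0.09 and those of Mvk and Pmvk 0.56 ± 0.07. Fdps and Hmgcs1 were close, 0.10 ± 0.05 apart, and changed places when all probe sets of a gene were averaged and with single-transcript probe sets (names without a letter suffix) alone (-1.669 for Hmgcs1, -1.663 for Fdps). Pmvk and Ggps1 overlapped, at 0.07 ± 0.16 (exact p = 0.6).

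Among the changes of all 12393 genes, ordered from the most negative, Idi1 ranked 7, Mvd 18, Fdps 41, Hmgcs1 53, Mvk 261, Pmvk 1512 and Ggps1 2084. The first 4 thus stood in the tail of the distribution, and Pmvk and Ggps1 in its shoulder, where many genes lie.

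**Figure D3:**
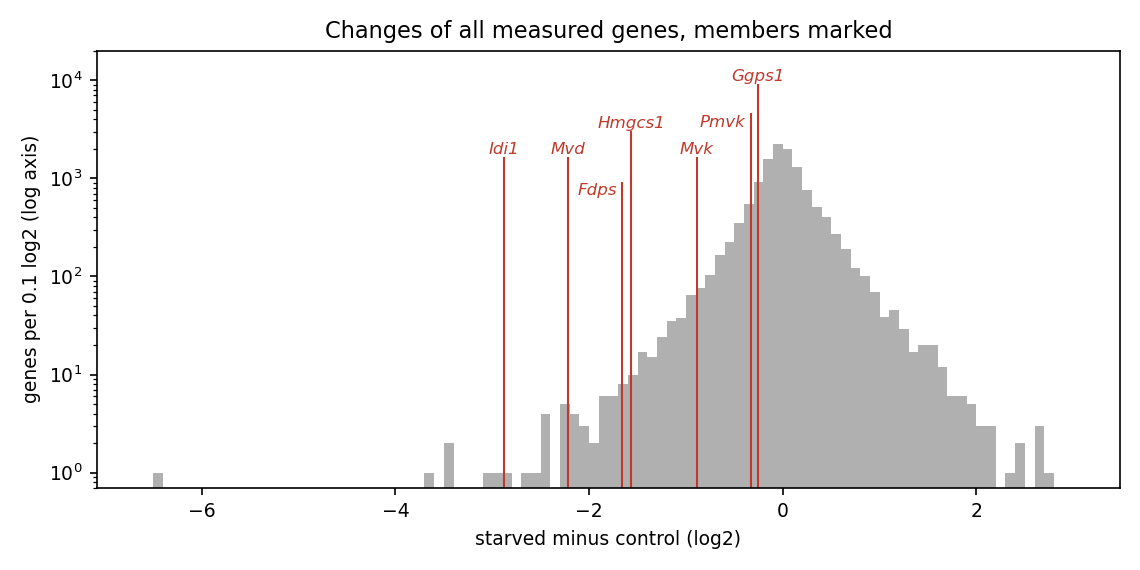
Histogram of the changes of all 12393 measured genes (starved minus control, log2, bins of 0.1) on a logarithmic count axis, with the 7 members as vertical lines of arbitrary height. Idi1 at -2.88 and Mvd at -2.21 lie in the thin left tail, and Pmvk at -0.33 and Ggps1 at -0.26 lie in the left shoulder.

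Within the groups the mean of the members differed little from array to array. With each gene centred on its average of the 6 arrays, the 7 members averaged -0.73, -0.70 and -0.67 in starved replicates 1, 2 and 3 and 0.68, 0.69 and 0.73 in control replicates 1, 2 and 3. Some members varied more than this mean. Centred values of Ggps1 ran from -0.23 to 0.06 in starved and from -0.04 to 0.26 in control arrays, and those of Mvd from -1.27 to -0.96 in starved arrays. By Euclidean distance over the 6 centred values, the genes outside the pathway enzymes above that came nearest to this mean profile were Enpep, a cell surface aminopeptidase (distance 0.0921), the splicing factor gene Sfpq (0.115), the lanosterol demethylase gene Cyp51 (0.117), the glutathione transferase gene Gsta4 (0.12) and the splicing factor gene Srsf2 (0.123). Cyp51 belongs to the sterol branch. It was near by its brightest probe set (-1.39 ± 0.06), while its other probe sets changed by -2.47 ± 0.06 and -0.92 ± 0.10.

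Downstream of farnesyl diphosphate the sterol branch fell as well. Of 12 enzymes listed 11 were measured, and 11 fell, with a median change of -1.15, where 20.1% of all genes fell. Msmo1, a sterol demethylating oxidase, read 6.74, 6.56 and 6.56 in starved cells, against 10.21, 10.22 and 10.26 in control cells. Its groups were far apart, with a change of -3.61 ± 0.07, and squalene epoxidase Sqle followed with -2.91 ± 0.06, Lss with -1.75 ± 0.09 and Hsd17b7 with -1.44 ± 0.12 (limma adjusted p at most 6.19e-05). A fall of at least 1 was seen in 8 of the 11, and in 1.50% of all genes. Whether this branch and the mevalonate enzymes fell by different amounts was not tested.

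In the other isoprenoid branches most genes did not pass. Of 9 measured enzymes of dolichol and ubiquinone synthesis 3 fell and 1 rose, with a median of -0.08, where 20.1% of all genes fell and 20.8% rose. The dolichol kinase gene Dolk fell by 0.95 ± 0.09 and the ubiquinone gene Coq9 by 0.40 ± 0.05, while Coq5, a methyltransferase of ubiquinone synthesis, rose by 0.32 ± 0.06. Nus1, a subunit of the dehydrodolichyl diphosphate synthase, fell by 0.58 ± 0.05 in its brightest probe set and by 0.56 ± 0.08 in another, whereas the other one differed by -0.02 ± 0.06 (limma adjusted p = 0.857). Its call was lost with single-transcript probe sets alone (limma adjusted p = 0.869, within a range of 3.87e-09 to 0.869 for its alternatives), which left 2 genes of the list called lower. There the probe set at -0.02 stood for Nus1, as the brightest left. The Nus1 probe set that fell by 0.56 is a single-transcript one too (limma adjusted p = 0.000723 in the main fit). Coq7 and Srd5a3 differed by -0.08 ± 0.06 and 0.16 ± 0.06 without passing. Srd5a3 passed without dim probe sets and with an intensity trend (limma adjusted p = 0.0325 and 0.028).

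Of 9 measured genes of protein prenylation 2 rose and 2 fell (22.2% each), close to the shares of all genes called (20.8% and 20.1%), with a median of 0.00. Rabggtb, the catalytic subunit of Rab geranylgeranyl transferase, read 10.06, 10.06 and 10.09 in starved cells, against 9.33, 9.45 and 9.46 in control cells. That rise was 0.66 ± 0.06 (limma adjusted p = 8.15e-05), and Fntb, the farnesyltransferase beta subunit, rose by 0.47 ± 0.07. The methyltransferase gene Icmt fell by 0.26 ± 0.05. Fnta, the subunit shared by farnesyl and geranylgeranyl transferase, fell by 0.18 ± 0.05, a call lost on leaving out any 1 array (limma adjusted p from 0.0523 to 0.0796, range over its alternatives 0.00168 to 0.0796). Zmpste24 and Rce1, proteases of prenylated proteins, differed by -0.06 ± 0.06 and 0.03 ± 0.06 without passing.

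Upstream, 3 of 6 measured genes of acetyl-CoA supply and ketone body metabolism fell and the other 3 did not pass, with a median of -0.33, where 20.1% of all genes fell. They were Acly, which makes cytosolic acetyl-CoA from citrate (-0.86 ± 0.06), the acetyl-CoA synthetase gene Acss2 (-0.56 ± 0.07) and the mitochondrial thiolase gene Acat1 (-0.50 ± 0.06). Oxct1, a ketone body transferase, differed by -0.17 ± 0.06 (limma adjusted p = 0.0611), and Bdh1, dim in both groups, by -0.05 ± 0.11. The other probe sets of Oxct1 differed by -0.18 ± 0.06 without passing, and fell by 0.40 ± 0.11 and 0.28 ± 0.07 (limma adjusted p = 0.0234 and 0.0108). Oxct1 passed under 5 alternatives, which made 4 genes called lower: without dim probe sets (limma adjusted p = 0.0293), under a second quantile normalization (0.0227), centred on array medians (0.0376), with an intensity trend (0.00236) and with the mean of its probe sets (0.00731). The range over its alternatives was 0.00236 to 0.187.

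Among 5 measured genes of SREBP control 3 fell and 2 rose, where 20.1% of all genes fell and 20.8% rose. Srebf2, which encodes SREBP2, read 7.83, 7.99 and 7.87 in starved cells, against 8.87, 8.58 and 8.76 in control cells. It was lower in every starved array and fell by 0.84 ± 0.09 (limma adjusted p = 0.000172), and by 1.27 ± 0.06 in its other probe set. Insig2, which retains SREBP in the endoplasmic reticulum, rose by 0.42 ± 0.05 in its brightest probe set, while 2 others differed by 0.05 ± 0.08 and 0.08 ± 0.09 without passing. Its call was lost with the mean of its probe sets (limma adjusted p = 0.0541, within a range of 3.44e-07 to 0.0541 for its alternatives).

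The remaining calls of that list were small and were lost when single arrays were left out. The SREBP escort gene Scap fell by 0.24 ± 0.07, a call lost without control replicate 1, control replicate 3 or starved replicate 2 (limma adjusted p from 0.0586 to 0.0687, range over its alternatives 0.0012 to 0.0687). Srebf1 rose by 0.17 ± 0.05, and lost its call without control replicate 1 or 2 or starved replicate 2 or 3 (limma adjusted p from 0.0762 to 0.0962, range over its alternatives 0.0089 to 0.0962). The site-1 protease gene Mbtps1, named after its value was seen, fell by 0.17 ± 0.05 and lost its call without any 1 array (limma adjusted p from 0.0557 to 0.108, range over its alternatives 0.0035 to 0.108).

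**Figure D4:**
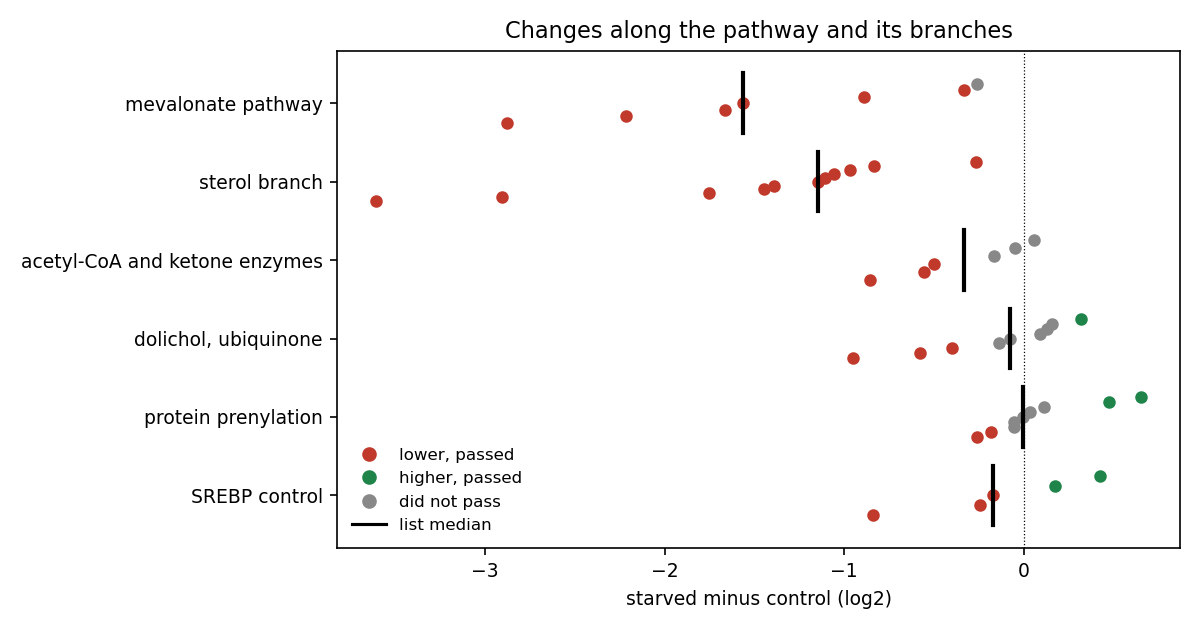
Change (starved minus control, log2) of each measured gene by its brightest probe set, for the mevalonate enzymes and 5 lists around them, with a vertical bar at each list's median. The medians are -1.56 for the mevalonate pathway and -1.15 for the sterol branch, and they lie between -0.33 and 0.00 in the other 4 lists.

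Array medians lay between 6.74 and 6.78, and arrays correlated at 0.998 within groups and at 0.986 to 0.988 between them, across probe sets. The 10 fibroblast markers had a median level of 12.65 in starved and 12.30 in control cells, and 1 of them, Thy1, was dim at 4.87 in starved and 4.80 in control cells. Of these, 4 rose and 3 fell, where 20.8% of all genes rose and 20.1% fell. The median change of these markers was 0.14: Lum fell by 2.05 ± 0.06, Pdgfrb fell by 0.81 ± 0.07 and Col1a1 rose by 0.57 ± 0.06. Their summed level (log2) was 16.22 to 16.28 in starved and 16.11 to 16.14 in control cells. That of 7 leukocyte markers was 9.12 to 9.13 in starved and 9.16 to 9.27 in control cells. Of these 7 leukocyte markers 3 were dim, among them the pan-leukocyte marker Ptprc, at 3.03 in starved and 3.07 in control cells. Not dim were Cd14, at 8.02 in starved and 8.34 in control cells, and Cd68, at 6.68 and 6.25. Lyz2, at 6.31 and 6.07, and Csf1r, at 6.17 and 6.18, were not dim either. Cd68 rose by 0.43 ± 0.06, Lyz2 rose by 0.24 ± 0.08 and Cd14 fell by 0.32 ± 0.06. Thus 28.6% of the leukocyte markers rose and 14.3% fell, where 20.8% of all genes rose and 20.1% fell. The 6 endothelial markers were all under 5, and 1 marker rose and 0 fell in each of the epithelial and endothelial lists by limma. The 6 epithelial markers summed to 7.13 to 7.24 in starved and 7.0001 to 7.18 in control cells, and the 6 endothelial ones to 6.39 to 6.67 in starved and 6.37 to 6.59 in control cells. The 3′ minus 5′ signal of Gapdh was -0.155 to -0.109 in starved and -0.105 to -0.0004 in control cells, without overlap (exact permutation p = 0.1, the smallest possible), and that of beta-actin overlapped. The part of these differences in the members' changes was not tested.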

How the data were processed

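Total RNA of 6 samples, 3 starved and 3 control, was made into biotin-labelled cRNA and hybridised to Affymetrix mouse arrays, per the labels' protocols. The values in the deposited table are log2 and were made by the authors with RMA (affy), per the submitters' processing notes, which give no version. RMA equalises the distribution of all arrays, so a shift of most transcripts in one direction would not be visible, and its levels are not comparable between probe sets. The number of arrays limits the precision.

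Of 22690 probe sets, 64 controls were set aside. The platform annotation gave 1 gene for 20380 probe sets, several for 691 and none for 1555; several-gene probe sets were not named, and 0 of them held a member. The brightest probe set (mean of 6 arrays) stood for each gene. Groups came from the titles. The comparison used limma 3.58.1 under R 4.3.3 (lmFit, eBayes, two-sided, no covariate), with Benjamini-Hochberg adjustment over 22626 probe sets and a threshold of 0.05, after a check of the fit on simulated data. The members and gene lists were chosen with earlier results of these data known. Lists were described by counts and medians, and from each up to 4 genes past the threshold with the largest change and the 2 brightest others were named, with the 5 genes nearest to the mean member profile. Same-numbered replicates were tested for pairing (correlation of deviations -0.0944, 0.0148 and -0.00833) and were not treated as pairs. Plots were made in Python 3.11.15 using matplotlib 3.10.9.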

Additional observations from a re-analysis of the deposited data

How the results depend on the processing

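The falls of Hmgcs1, Mvk, Mvd, Idi1 and Fdps passed under each of 15 alternatives, and that of Pmvk under the 14 that gave it a value (its only probe set can match several transcripts). Over these, Idi1 ranged from -2.96 to -2.85, Mvd from -2.29 to -2.13, Hmgcs1 from -1.67 to -1.51, Mvk from -0.94 to -0.76, Pmvk from -0.36 to -0.30, and Fdps from -1.71 to -0.88, the last with its dim probe set averaged in. Ggps1 reversed to 0.027 with the mean of all probe sets. With 1 array left out, Bdh1 ranged from -0.148 to 0.0623 and Rce1 from -0.00496 to 0.0565, with a change of sign; neither had passed.

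Over all probe sets, 4589 rose and 4344 fell. Among single-transcript probe sets (names without a letter suffix), 2888 rose and 2828 fell of 15605 tested, and with the mean per gene 2626 rose and 2580 fell of 12393; both test fewer features. Dolichol and ubiquinone genes called higher became 2 without dim probe sets, with an intensity trend and without moderation. Prenylation genes called higher became 1 with single-transcript probe sets alone, where Rabggtb had no probe set. SREBP control genes called higher became 1 there too, where Srebf1 had no probe set. They also became 1 under a second quantile normalization (Srebf1, limma adjusted p = 0.057) and with the mean per gene (Insig2, limma adjusted p = 0.0541). Of the dolichol and ubiquinone genes, Srd5a3 passed without dim probe sets and with an intensity trend (limma adjusted p = 0.0325 and 0.028). Without moderation Srd5a3 did not pass (ordinary t-test, adjusted p = 0.0636), and why the count moved there was not tested.

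With the replicate number as a block, 6 members were called lower, prenylation genes called lower became 1, and SREBP control genes called higher became 1 and called lower 2. Leaving out 1 array gave 6 to 7 members called lower, 1 prenylation gene called lower, and 1 to 2 SREBP control genes in each direction. Of all 22626 probe sets, 4225 rose and 3943 fell with the block. With 1 array left out, 3949 to 4429 rose and 3693 to 3965 fell. Without batch labels, starvation and any batch aligned with it cannot be told apart.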
